A study of Mus musculus with 9 samples.

Results

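The genes described here encode the receptor chains for type I, II and III interferon (IFN) and the kinases and transcription factor that work directly beneath them. The 9 members were chosen by name, as Ifnar1, Ifnar2, Ifngr1, Ifngr2, Ifnlr1, Il10rb, Jak1, Tyk2 and Stat2, out of 39179 genes in the count table, and each of the 9 was found and had enough reads to be tested. Transcripts were counted by RNA sequencing in 3 dendritic cell (DC) subsets that were sorted from the spleens of unstimulated C57BL/6J mice. These were cDC1 (conventional DC with CD8), cDC2 (conventional DC without CD8) and pDC (plasmacytoid DC). All groups were at steady state, and the labels name no genetic change or treatment and give neither the age nor the sex of the mice. Each subset had 3 libraries, each from a pool of 15 to 17 mice, so mouse-to-mouse differences were averaged within a library. Libraries with the same replicate number carry the same date code in the labels, which do not say what was done on that date.

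Interferons signal through paired receptor chains on the cell surface. IFNAR1 and IFNAR2 bind IFN-α and IFN-β, IFNGR1 and IFNGR2 bind IFN-γ, and IFNLR1 pairs with IL10RB to bind IFN-λ. The chains have no enzyme activity and rely on the Janus kinases JAK1, TYK2 and JAK2, which phosphorylate STAT proteins. STAT2 and IRF9 are parts of ISGF3, the complex that switches on antiviral genes after type I or type III IFN. IL10RB also serves receptors for IL-10 and IL-22. In the spleen, pDC are known as strong producers of type I IFN, and cDC1 and cDC2 as the cells that present antigen to CD8 and CD4 T cells.

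The members lie on 4 chromosomes, with positions in GRCm38 taken from the GENCODE M21 annotation. On the plus strand of chromosome 16, Ifnar2 (91372783 to 91405589), Il10rb (91406164 to 91425834), Ifnar1 (91485238 to 91507441) and Ifngr2 (91547072 to 91565623) follow each other within 192.8 kb. Ifngr1 (19591949 to 19610229) and Stat2 (128270559 to 128292849) are both on the plus strand of chromosome 10 and far apart. Ifnlr1 (135686287 to 135708181, plus strand) and Jak1 (101152367 to 101265282, minus strand) are on chromosome 4, and Tyk2 (21104068 to 21131243, minus strand) is on chromosome 9. All 9 are protein coding, and their longest transcripts have between 7 and 25 exons.

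The 250 bases upstream of the start sites are shown for Ifnar1, Ifnar2 and Stat2, which were all higher in pDC, and for Ifngr1, which was lower in pDC. RefSeq sequences (GRCm38.p6) were matched for 8 of the 9 members, and none was matched for Il10rb. Capitals mark a match, on either strand, to the gamma-activated sequence TTCNNNGAA, a kind of site that STAT proteins bind, or to the core of the interferon-stimulated response element (GAAA, any 2 bases, GAAA), the kind of site that ISGF3 and IRF proteins bind. All 4 windows are read on the plus strand.
Ifnar1, chr16:91484965-91485214: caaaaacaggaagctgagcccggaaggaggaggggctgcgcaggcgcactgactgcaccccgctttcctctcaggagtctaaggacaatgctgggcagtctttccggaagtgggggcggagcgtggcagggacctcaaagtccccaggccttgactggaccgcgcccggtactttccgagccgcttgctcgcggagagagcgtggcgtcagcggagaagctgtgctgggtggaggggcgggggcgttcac
Ifnar2, chr16:91372533-91372782: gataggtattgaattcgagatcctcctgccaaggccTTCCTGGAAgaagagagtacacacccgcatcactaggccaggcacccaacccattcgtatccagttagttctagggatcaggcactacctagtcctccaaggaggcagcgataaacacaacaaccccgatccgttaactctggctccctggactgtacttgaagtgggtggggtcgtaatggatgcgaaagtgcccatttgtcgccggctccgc
Stat2, chr10:128270248-128270497: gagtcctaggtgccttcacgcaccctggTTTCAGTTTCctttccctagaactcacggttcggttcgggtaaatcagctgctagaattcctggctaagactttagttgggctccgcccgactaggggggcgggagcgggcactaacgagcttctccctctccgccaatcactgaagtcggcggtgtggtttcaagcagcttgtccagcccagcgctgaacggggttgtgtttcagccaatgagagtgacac
Ifngr1, chr10:19591699-19591948: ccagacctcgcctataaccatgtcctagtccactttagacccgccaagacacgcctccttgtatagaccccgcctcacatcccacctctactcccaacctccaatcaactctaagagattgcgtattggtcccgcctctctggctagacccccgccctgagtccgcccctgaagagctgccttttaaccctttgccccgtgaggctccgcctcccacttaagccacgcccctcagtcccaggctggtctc
The Stat2 window held 1 response element core, which reads on the minus strand and begins 222 bases before the start, and the Ifnar2 window held 1 gamma-activated sequence, which begins 214 bases before the start. The other 6 windows held neither set of letters. Of 32851 mouse promoter windows of the same length, 2.98% held the response element core and 7.02% the gamma-activated sequence, so either match is also found in many other genes. These matches describe letters and do not show that a factor binds there.

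Counts summed to between 15806597 and 32453789 per library, with replicate 3 the shallowest library of each subset. Levels are given as CPM, the counts relative to a library's total scaled with edgeR's TMM factors, and 3 counts, taken as the floor, corresponded to 0.0908 to 0.203 CPM. No libraries of a subset were duplicates of each other, since the chi-square between them was 10.7 to 68.5 times its degrees of freedom. The labels were checked against marker genes. The summed level of 8 pDC markers was 13200 to 14100 CPM in pDC and 221 to 330 in the other libraries. The 8 cDC1 markers summed to 6320 to 7140 CPM in cDC1, 430 to 565 in cDC2 and 4710 to 5250 in pDC, where Irf8 alone gave 4030 to 4550 CPM, while Xcr1 was at 929 to 947 CPM in cDC1 and at most 64.9 elsewhere. The 6 cDC2 markers summed to 1790 to 1920 CPM in cDC2 and to 2460 to 2590 in pDC, where Cd4 and Clec10a were highest, whereas Itgam, Sirpa, Irf4 and Clec4a4 were highest in cDC2. Summed B cell markers (5 of 5 genes) were highest in cDC2, at 208 to 235 CPM with 176 to 207 from Cd22, and summed T cell markers (5 of 5 genes) in pDC, at 237 to 266 CPM with 222 to 249 from Il7r, while Pax5 and Cd3e were below 1 CPM in all 9 libraries. Summed NK cell markers (5 of 5 genes) stood at 9.05 to 83.6 CPM and macrophage markers (5 of 6 genes) at 20.7 to 241 CPM, and both varied between replicates.

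The members were tested in 3 comparisons between subsets, and the share of all genes called is given for each. Jak1 was called only in cDC2 against cDC1, where its adjusted p was under 0.05 in 11 of 20 alternative settings. In pDC against cDC1, edgeR's quasi-likelihood test, adjusted by Benjamini-Hochberg over 13819 genes, placed 4 members higher in pDC (Ifnar1, Ifnar2, Il10rb and Stat2), 3 lower (Ifngr1, Ifngr2 and Tyk2) and left Jak1 uncalled. Ifnlr1 is not counted against pDC, where it was at or under the floor and would not have passed the filter on low counts. Of all genes tested, 48.6% passed the adjusted p of 0.05 in this comparison, 24.3% higher and 24.4% lower in pDC. In pDC against cDC2, the same 4 receptor and STAT genes were higher, Ifngr1 and Ifngr2 were lower, and Jak1 and Tyk2 were not called, against a background of 45.8% of all genes called, 22.5% higher and 23.3% lower. In cDC2 against cDC1, Ifnar2, Il10rb and Jak1 were higher in cDC2, Ifngr1, Ifnlr1 and Tyk2 were lower, and 3 members were not called. The background there was 24.4%, with 12.7% higher and 11.7% lower in cDC2. The median size of the log2 difference over the 9 members was 1.51, 0.95 and 0.54 in the 3 comparisons, with Ifnlr1 at its bound against pDC, and over all genes tested it was 0.63, 0.59 and 0.36. With pooled cells, fewer cells that express a gene and less RNA per cell cannot be told apart. The comparisons share libraries, so their calls are not independent.

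**Figure D1:**
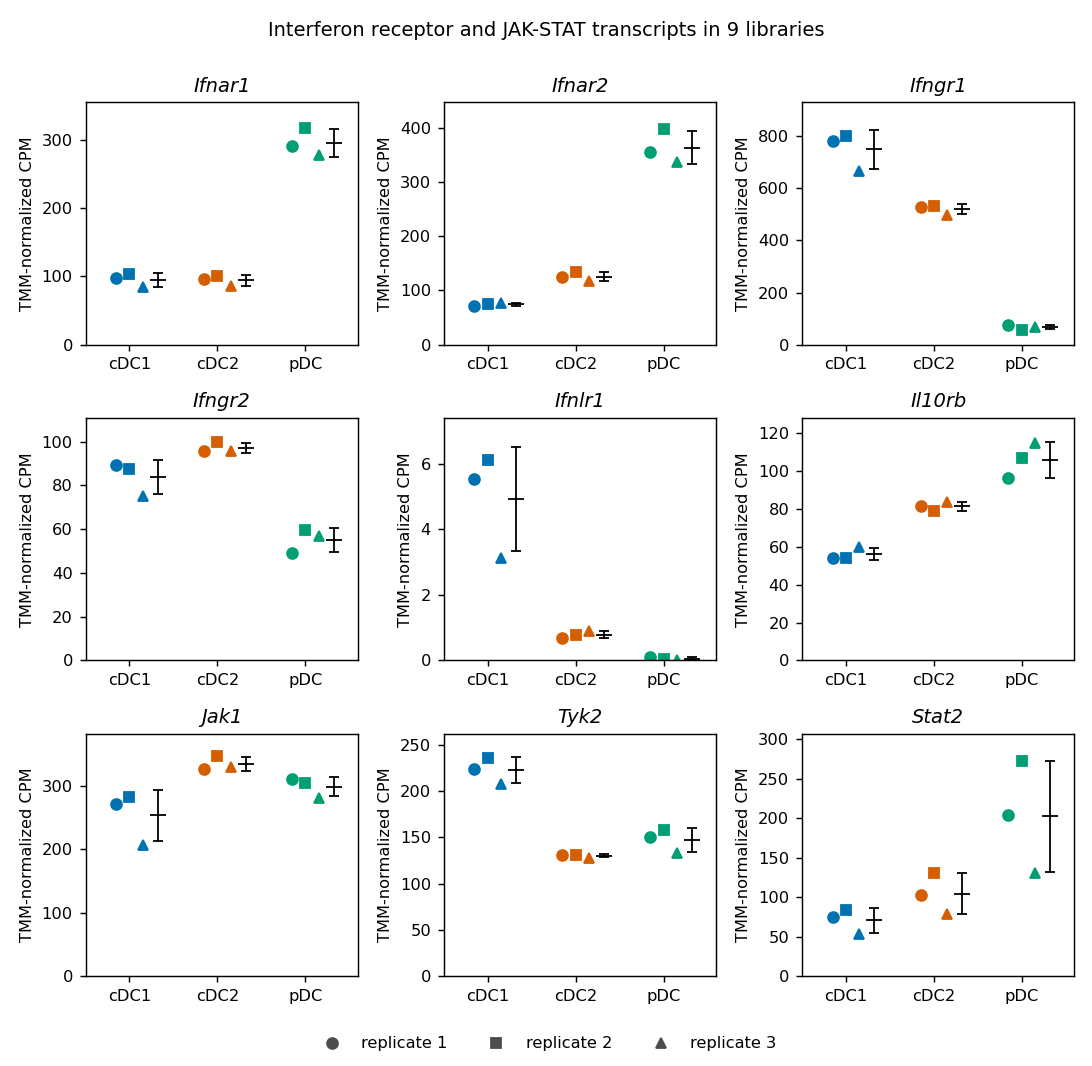
Level of each of the 9 members in every library (vertical axis, TMM-normalized CPM, linear and starting at 0) for cDC1, cDC2 and pDC. Symbols mark replicates 1, 2 and 3, and the black bar beside them is the mean with 1 SD (n = 3). Ifnar1 and Ifnar2 were highest in all pDC libraries, Ifngr1 and Ifnlr1 were highest in all cDC1 libraries, and Stat2 was lowest in replicate 3 of each subset.

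Transcripts of the receptor for type I IFN were most abundant in pDC, for both of its chains. Ifnar1 encodes the chain to which TYK2 attaches. It stood at 97, 104 and 84.1 CPM in cDC1 replicates 1, 2 and 3, at 95.6, 101 and 85.7 in cDC2, and at 291, 317 and 278 in pDC. Every pDC library lay well above all 6 conventional DC libraries, whereas cDC1 and cDC2 overlapped. The log2 difference between pDC and cDC1 was 1.64 (SE 0.115, 3.11-fold, adjusted p = 2.26e-06) and between pDC and cDC2 it was 1.65 (SE 0.115, adjusted p = 2.33e-06, edgeR's quasi-likelihood test). Between cDC2 and cDC1 the estimate was -0.01 with a 95% interval of -0.27 to 0.24 (adjusted p = 0.952, edgeR).

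Ifnar2 encodes the other chain, which carries JAK1 and binds the ligand tightly. Its levels were 71.5, 75.4 and 77.1 CPM in cDC1, 125, 134 and 118 in cDC2, and 355, 398 and 338 in pDC. Unlike Ifnar1, it formed 3 steps that did not overlap, with cDC2 between the other subsets. The pDC exceeded cDC1 by 2.28 (SE 0.103, 4.87-fold, adjusted p = 1.44e-07) and cDC2 by 1.53 on the log2 scale (SE 0.1, 2.89-fold, adjusted p = 1.48e-06), and cDC2 exceeded cDC1 by 0.75 (SE 0.0991, adjusted p = 0.000415, edgeR). The reading of Ifnar2 has a limit, because 9.46% of its exon bases also belong to Gm21970, a transcript on the same strand that runs into Il10rb and was listed at 0 in every library.

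**Figure D2:**
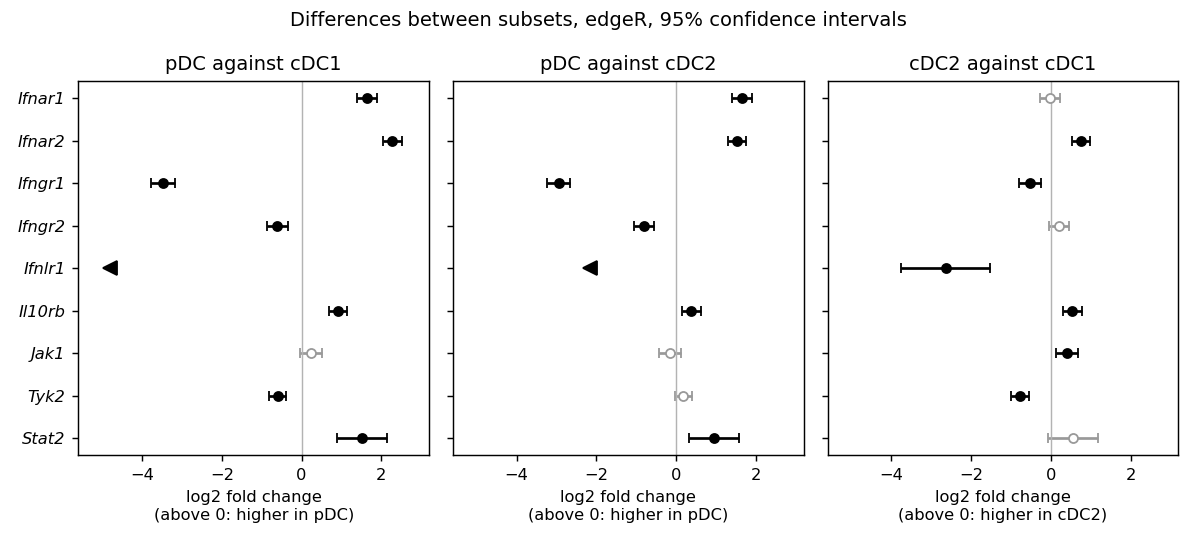
Log2 fold change of each member (horizontal axis) for the 3 comparisons between subsets, from edgeR's quasi-likelihood fit over 9 libraries, with 95% confidence intervals. Filled black circles passed an adjusted p of 0.05, open grey circles did not, and triangles give a bound for Ifnlr1, whose pDC counts were at or under the floor. Of the members above the floor, Ifngr1 at -3.47 and Ifnar2 at 2.28 stood farthest from 0 in opposite directions in pDC against cDC1.

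Transcripts of the receptor for IFN-γ were least abundant in pDC, for both of its chains. The transcript of the ligand-binding chain had the widest difference of any member above the floor. Ifngr1, which binds IFN-γ and carries JAK1, stood at 783, 800 and 665 CPM in cDC1, at 529, 532 and 497 in cDC2, and at 76.7, 58.1 and 67.8 in pDC. The lowest cDC2 library was still several times above the highest pDC library, and the 3 subsets did not overlap. The level in pDC was 11.1-fold lower than in cDC1 (log2 -3.47, SE 0.131, adjusted p = 6.16e-08) and 7.69-fold lower than in cDC2 (log2 -2.94, SE 0.128, adjusted p = 1.57e-07). In cDC2 it was also lower than in cDC1, by a log2 difference of -0.53 (SE 0.119, adjusted p = 0.00944, edgeR). Summed macrophage markers in pDC were lowest in replicate 2 (20.7 CPM), the pDC library with the least Ifngr1, and highest in replicate 3 (123 CPM), and their part in the remaining Ifngr1 reads was not tested.

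Ifngr2 encodes the chain that brings JAK2 to the IFN-γ receptor. It stood at 89.5, 87.3 and 75 CPM in cDC1, 95.7, 100 and 95.8 in cDC2, and 49, 59.6 and 56.8 in pDC. All pDC libraries were lower than all others, but the gap was much narrower than for Ifngr1. The log2 difference was -0.61 from cDC1 (SE 0.113, adjusted p = 0.00152) and -0.82 from cDC2 (SE 0.113, adjusted p = 0.000245, edgeR). The cDC2 and cDC1 values did not overlap, but their difference of 0.21 (95% interval -0.04 to 0.46) did not pass the test (adjusted p = 0.223, edgeR).

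The transcript of the specific chain of the IFN-λ receptor was scarce and found mainly in cDC1. Ifnlr1 had 152, 147 and 46 counts in the cDC1 libraries, 22, 22 and 17 in cDC2, and 3, 1 and 0 in pDC. As levels these were 5.54, 6.13 and 3.12 CPM in cDC1 and 0.701, 0.77 and 0.904 CPM in cDC2. The pDC counts did not rise above the floor of 3 in any library, so only a bound on the fold can be given. Against the highest pDC floor (0.177 CPM), the mean in cDC1 was at least 27.9-fold higher and the mean in cDC2 at least 4.48-fold higher. The gene passed the filter on low counts only through the conventional subsets, so no test against pDC is given. The cDC2 level was lower than the cDC1 level by a log2 difference of -2.64 (SE 0.493, adjusted p = 0.00339, edgeR). The floor covers counting error only.

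Il10rb, the shared chain that completes the IFN-λ receptor and carries TYK2, followed a different order from Ifnlr1. It stood at 54.3, 54.3 and 59.8 CPM in cDC1, at 81.9, 78.8 and 83.6 in cDC2, and at 96.3, 107 and 115 in pDC. The 3 subsets did not overlap and rose in the order cDC1, cDC2, pDC. The pDC exceeded cDC1 by 0.92 (SE 0.103, adjusted p = 5.22e-05) and cDC2 by 0.38 on the log2 scale (SE 0.102, adjusted p = 0.0119), and cDC2 exceeded cDC1 by 0.54 (SE 0.103, adjusted p = 0.00383, edgeR). The subset with the most Il10rb was thus the one in which Ifnlr1 was at or under the floor. For Il10rb, 14.9% of exon bases are shared with Gm21970.

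Among the members, the kinase genes Jak1 and Tyk2 differed by less than 1 on the log2 scale in each comparison. JAK1 attaches to IFNAR2, IFNGR1 and IFNLR1 and so serves all 3 receptors. Jak1 stood at 271, 282 and 207 CPM in cDC1, 326, 346 and 329 in cDC2, and 310, 304 and 281 in pDC, with the lowest value in cDC1 replicate 3. The cDC1 range reached into the pDC range but not into that of cDC2. Only cDC2 against cDC1 passed the test, at a log2 difference of 0.40 (SE 0.12, adjusted p = 0.0372, edgeR). The call was lost when cDC1 replicate 1 or 3, any cDC2 library, or pDC replicate 1 or 2 was left out, most clearly without cDC1 replicate 3 (0.24, adjusted p = 0.106) and cDC2 replicate 2 (0.36, adjusted p = 0.135). The pDC minus cDC1 difference was 0.24 (95% interval -0.03 to 0.51, adjusted p = 0.135) and passed with the replicate number as a block (0.24, adjusted p = 0.0349). Between pDC and cDC2 it was -0.16 (95% interval -0.43 to 0.11, adjusted p = 0.306, edgeR).

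TYK2 attaches to IFNAR1 and IL10RB, and its transcript was highest in cDC1. Tyk2 stood at 224, 236 and 208 CPM in cDC1, 131, 131 and 128 in cDC2, and 150, 158 and 133 in pDC. All cDC1 libraries were above all others, and the lowest pDC library lay just above the cDC2 range. The log2 difference was -0.60 in pDC against cDC1 (SE 0.097, adjusted p = 0.000628) and -0.78 in cDC2 against cDC1 (SE 0.0972, adjusted p = 0.000303, edgeR). Between pDC and cDC2 it was 0.18 (95% interval -0.04 to 0.40, adjusted p = 0.16), and it passed the threshold with the replicate block (0.18, adjusted p = 0.0426) and without replicate 3 (0.23, adjusted p = 0.0297, edgeR). An antisense gene, 1700084C06Rik, covers 8.07% of Tyk2 exon bases and had at most 5 counts in any library.

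STAT2 carries the signal of type I and type III IFN as part of ISGF3. Stat2 stood at 74.4, 84.2 and 53.8 CPM in cDC1, at 103, 131 and 79 in cDC2, and at 204, 272 and 131 in pDC. Replicate 3 was the lowest and replicate 2 the highest in each subset, and the spread within pDC was wide enough that its lowest library met the highest cDC2 library. The mean was 202 ± 70.3 CPM in pDC (SD, n = 3), 105 ± 26.2 in cDC2 and 70.8 ± 15.5 in cDC1. The pDC minus cDC1 difference was 1.51 on the log2 scale (SE 0.284, adjusted p = 0.00159) and the pDC minus cDC2 difference was 0.95 (SE 0.28, adjusted p = 0.0192, edgeR). The second of these did not pass without cDC2 replicate 1 (0.94, adjusted p = 0.0586), cDC2 replicate 3 (0.78, adjusted p = 0.0738) or pDC replicate 2 (0.68, adjusted p = 0.077). With the replicate block the differences of pDC from cDC1 and cDC2 were 1.48 and 0.92 (adjusted p = 1.11e-06 and 2.18e-05, edgeR). Between cDC2 and cDC1 the difference was 0.56 (95% interval -0.07 to 1.19, adjusted p = 0.191), and it passed with the replicate block (0.56, adjusted p = 0.00111) and without replicate 3 (0.53, adjusted p = 0.0459, edgeR). The cDC2 library exceeded the cDC1 library in each of the 3 same-numbered pairs.

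Levels can be set side by side between genes only per kilobase of exon. In cDC1 and cDC2, Ifngr1 had the highest mean of the 9 members, at 263 and 182 CPM per kb, followed by Jak1 at 35 and 46.2 CPM per kb. In pDC, Ifnar2 led with 109 CPM per kb, followed by Ifnar1 with 49.7, and Ifngr1 ranked 6 with 23.7 CPM per kb. Ifnlr1 was the lowest in each subset, at 1.18, 0.189 and 0.0113 CPM per kb in cDC1, cDC2 and pDC. In pDC, the partner chain Il10rb stood at 27.9 CPM per kb.

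The balance between partner chains was then compared within each library, since a ratio of 2 genes does not depend on how libraries are scaled. Ifnar1 per Ifnar2 (reads per kb) was 0.76, 0.772 and 0.611 in cDC1, 0.428, 0.422 and 0.407 in cDC2, and 0.459, 0.446 and 0.461 in pDC. By this length Ifnar2 was the more abundant transcript in every library, and the cDC1 libraries stood apart from the rest. Ifngr1 per Ifngr2 was 11.6, 12.1 and 11.7 in cDC1, 7.32, 7.04 and 6.87 in cDC2, and 2.07, 1.29 and 1.58 in pDC. The transcript of the ligand-binding chain thus exceeded that of its partner in all 9 libraries, with the lowest excess in pDC. Jak1 per Tyk2 was 1.15, 1.13 and 0.945 in cDC1, 2.37, 2.51 and 2.44 in cDC2, and 1.96, 1.83 and 2 in pDC. The 3 subsets did not overlap in any of the 3 ratios. The genes in these ratios also differed between subsets by themselves. How often ratios of other gene pairs separate the subsets was not examined.

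Each ratio differed among the subsets in an exact permutation test of the spread between subsets, which has no direction, over 1680 arrangements of the libraries (p = 0.00357 for each, also after Benjamini-Hochberg adjustment over the 3 ratios), which is the smallest p this design allows. With arrangements kept within date codes, the exact permutation p was 0.0278 for each, again the smallest of 216 arrangements. On the log2 scale, the Ifngr ratio in pDC differed by -2.87 from cDC1 and by -2.13 from cDC2, the Ifnar ratio in cDC2 differed by -0.76 from cDC1, and the Jak1 to Tyk2 ratio in cDC2 differed by 1.19 from cDC1. The absolute ratio depends on the length used. With the longest transcript in place of all exons, Ifnar1 per Ifnar2 was 1.06, 1.07 and 0.85 in cDC1, so that Ifnar1 became the higher chain in replicates 1 and 2. It was 0.566 to 0.595 in cDC2 and 0.621 to 0.642 in pDC, while differences between subsets were the same by construction.

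**Figure D3:**
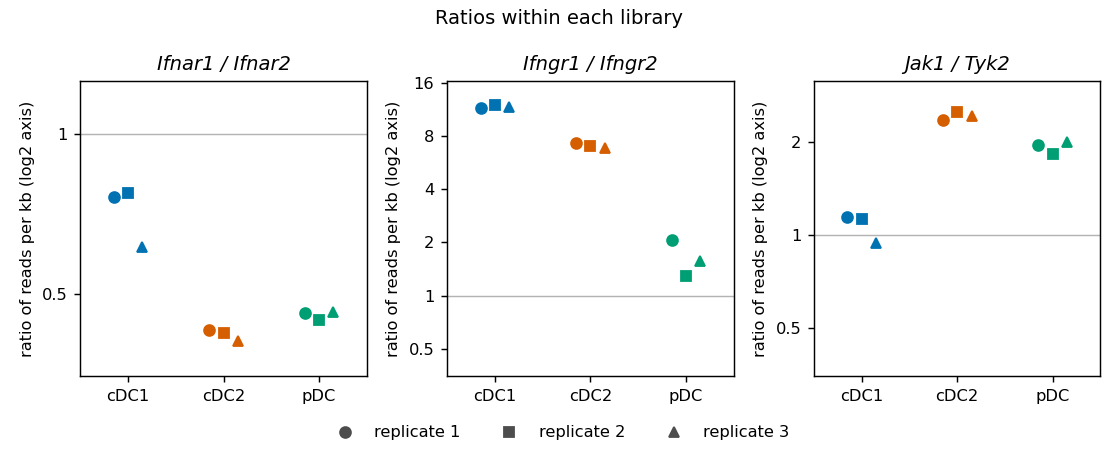
Ratio of exon reads per kb within each library (log2 axis) for Ifnar1 to Ifnar2, Ifngr1 to Ifngr2 and Jak1 to Tyk2. Symbols mark replicates, and the grey line is a ratio of 1. Ifngr1 to Ifngr2 was 11.6 or more in cDC1 and 2.07 or less in pDC, and each panel shows 3 subsets that do not overlap.

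The rest of the pathway was examined with gene lists. Among the other kinases and transcription factors, 5 of 9 were higher in pDC than in cDC1 (Jak3, Stat3, Stat5a, Stat5b and Irf9), Jak2 was lower and 3 were not called. In pDC against cDC2, 0 of 9 were higher and 2 were lower (2 higher and 3 lower with the replicate block), and in cDC2 against cDC1, 6 of 9 were higher and 0 lower. The calls made up 66.7%, 22.2% and 66.7% of the list, against 48.6%, 45.8% and 24.4% of all genes tested. Jak2, the partner of IFNGR2, stood at 368, 346 and 288 CPM in cDC1, 641, 694 and 586 in cDC2, and 198, 220 and 237 in pDC. It was thus lowest in the subset with the least Ifngr1 and Ifngr2, by a log2 difference of -0.61 from cDC1 (adjusted p = 0.00206) and -1.55 from cDC2 (adjusted p = 5.23e-06, edgeR). Jak3, which serves cytokine receptors with the common gamma chain, was higher by 0.87 in pDC and by 1.09 in cDC2 than in cDC1 (adjusted p = 0.000346 and 0.000219, edgeR).

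Stat4, known for its role in responses to IL-12 and type I IFN, had a mean of 46.4 CPM in cDC2 and of 8.36 and 9.7 CPM in cDC1 and pDC. It was higher in cDC2 than in cDC1 by 2.47 on the log2 scale (adjusted p = 4.38e-06, edgeR), and lower in pDC than in cDC2 (-2.26, adjusted p = 1.27e-06). Irf9, which encodes a partner of STAT2 in ISGF3, was higher in pDC than in cDC1 by 0.30 (adjusted p = 0.0421, edgeR), with means of 169 and 137 CPM. In pDC against cDC2, Irf9 did not pass (0.28, adjusted p = 0.0571) but did with the replicate block (0.28, adjusted p = 0.0108, edgeR). Stat3, Stat5a and Stat5b were higher than in cDC1 in both pDC and cDC2, with log2 differences between 0.32 and 0.67, all past the test. Stat6 had means of 193, 222 and 191 CPM in cDC1, cDC2 and pDC and was not called. With the replicate block it passed at -0.22 in pDC against cDC2 and 0.20 in cDC2 against cDC1 (adjusted p = 0.0193 and 0.0408, edgeR).

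Of 6 related class II cytokine receptors, the family to which all IFN receptor chains belong, only 2 had enough reads to be tested. Il22ra2, which encodes a soluble decoy receptor for IL-22 and was named after its values were seen, had means of 0.691 and 0.609 CPM in cDC1 and cDC2 and 0.0504 in pDC. It had at most 21 counts in any library and passed the filter only through the conventional subsets, so no test against pDC is given. Il10ra, the ligand-binding partner of Il10rb in the IL-10 receptor, had means of 374, 388 and 277 CPM in cDC1, cDC2 and pDC, with log2 differences in pDC of -0.44 (adjusted p = 0.00843) and -0.49 (adjusted p = 0.00482, edgeR). Il10rb and its partner in the IL-10 receptor therefore ran in opposite directions in pDC.

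Interferon transcripts themselves were almost absent from these unstimulated cells. Of 20 ligand genes, 18 were in the table and 0 had enough reads for a test. Ifnb1 reached at most 7 counts in any library. Ifng, the ligand of the receptor described above, stood at 0.159, 0.525 and 3.14 CPM in cDC2 and at most 0.135 CPM in the other libraries. In the same cDC2 libraries the NK cell marker Ncr1 stood at 2.33, 6.51 and 10.4 CPM, and its part in the Ifng reads was not tested.

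Inhibitors of the pathway were called at shares near those of all genes in the comparisons with pDC. Of 16 inhibitors, 6 were higher and 3 lower in pDC than in cDC1, 4 were higher and 4 lower in pDC than in cDC2, and 6 were higher and 0 lower in cDC2 than in cDC1. The calls made up 56.2%, 50% and 37.5% of the list, against 48.6%, 45.8% and 24.4% of all genes tested. Socs2, a feedback inhibitor of cytokine signalling, was nearly missing from pDC at 1.09, 0.862 and 1.18 CPM, against means of 21.7 in cDC1 and 29.5 in cDC2 (log2 -4.37 and -4.81, adjusted p = 2.4e-06 and 1.48e-06, edgeR). Socs3, which blocks JAK activity, ran the other way, at 15, 21.9 and 43.7 CPM in pDC and 2.62, 2.34 and 9.82 CPM in cDC1 (log2 2.48, adjusted p = 0.00575, edgeR). Its level was highest in replicate 3 of each subset, and it was called for date code (adjusted p = 0.0437, edgeR). Btrc, part of the ubiquitin ligase that removes IFNAR1 from the surface, was higher in pDC than in cDC1 and cDC2 by 2.06 and 1.67 (adjusted p = 1.6e-06 and 6.16e-06, edgeR). The phosphatase gene Ptpn6 (SHP-1) was higher in cDC2 than in cDC1 by 1.52 (adjusted p = 2.79e-05), as was Ptprc (CD45) by 1.29 (adjusted p = 0.000374, edgeR). Ptpn11, which encodes the phosphatase SHP-2, was lower in pDC than in cDC1 (-0.47, adjusted p = 0.00698, edgeR).

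Transcripts that ISGF3 switches on were higher in pDC and in cDC2 than in cDC1 for most of the list. In pDC, 12 of 18 such targets were above cDC1 and 0 below, with a median log2 difference of 1.02 against 0.02 over all genes. In cDC2, 13 of 18 were above cDC1 and 0 below, with a median of 2.30 against 0.03. With the replicate block Mx1 (-0.53, adjusted p = 0.0145) and Ifi44 (-0.77, adjusted p = 0.00453, edgeR) were lower in cDC2. In pDC against cDC2, 4 were higher and 9 lower, with a median of -0.72 against -0.01. The calls made up 66.7%, 72.2% and 72.2% of the list in the order given, against 48.6%, 24.4% and 45.8% of all genes tested. The counts with cDC2 include Oas2, which passed the filter on low counts only through cDC2, and without it 12 were above cDC1 and 8 above pDC.

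Oas2, an antiviral enzyme that makes oligoadenylates, stood at 12, 18.3 and 8.24 CPM in cDC2, only 0.255, 0.334 and 0.474 in cDC1, and 0.726, 0.558 and 0 in pDC. Rtp4, an IFN-induced transport protein, stood at 41.9, 45.3 and 56.5 CPM in cDC2, only 1.64, 1.04 and 1.35 in cDC1, and 1.09, 1.32 and 4.65 in pDC. Both were far higher in every cDC2 library than elsewhere, and Rtp4 differed from cDC1 by 5.14 on the log2 scale (adjusted p = 7.96e-05, edgeR). Irf7, the factor that drives IFN-α production, was instead highest in pDC, at 442, 506 and 621 CPM against 100 to 176 in the conventional subsets (log2 2.03 over cDC2, adjusted p = 0.000101, edgeR). Ifi44 followed the same order, with 55.8, 61.7 and 82.2 CPM in pDC and a log2 difference of 3.73 over cDC2 (adjusted p = 3.97e-06, edgeR). Oasl2 was shared by both, with means of 76 CPM in cDC2 and 70.9 in pDC and 5.87 in cDC1.

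**Figure D4:**
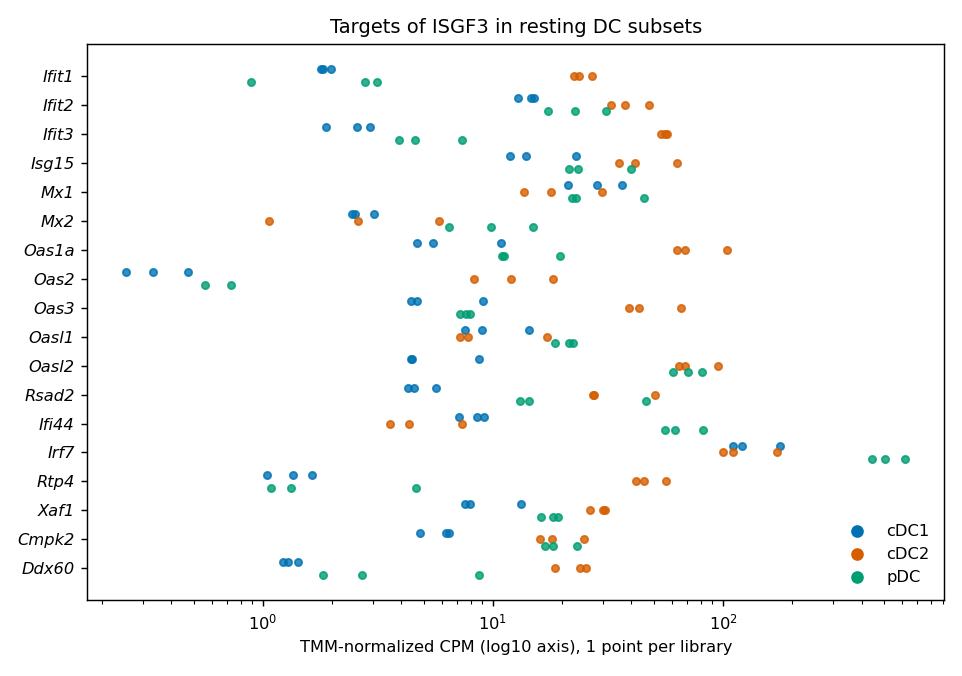
TMM-normalized CPM (log10 axis) of 18 targets of ISGF3 in each of the 9 libraries, 1 point per library, coloured by subset. The value of Oas2 in pDC replicate 3 was 0 and is not drawn. Oas2 and Rtp4 were highest in cDC2, and Ifi44 and Irf7 in pDC.

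Of 11 listed targets of IFN-γ, 10 were tested, of which 3 were higher and 6 lower in pDC than in cDC1, and 2 were higher and 5 lower in pDC than in cDC2. In cDC2 against cDC1, 3 were higher and 3 lower. The calls made up 90%, 70% and 60% of those tested, against 48.6%, 45.8% and 24.4% of all genes. Cxcl9, a chemokine that attracts activated T cells, stood at 609, 559 and 607 CPM in cDC1, 55.6, 54 and 55.3 in cDC2, and 7.87, 1.98 and 6.54 in pDC. It had the same order of subsets as Ifngr1 (pDC against cDC1 log2 -6.74, adjusted p = 1.11e-06, edgeR). Gbp2, a guanylate-binding protein, was lowest in pDC but highest in cDC2, with means of 29.9, 69 and 6 CPM in cDC1, cDC2 and pDC. Tap1, the peptide transporter for MHC class I, was lower in cDC2 than in cDC1 (-0.80, adjusted p = 0.00153, edgeR). Irf1 ran against the receptor and was higher in pDC than in cDC2 by 0.65 (adjusted p = 0.00273, edgeR). Ido1, at a mean of 4.72 CPM in pDC, was higher in pDC than in cDC1 by 1.35 (adjusted p = 0.0457, edgeR). Its calls against cDC2, where it would not have passed the filter on low counts, are among those counted above.

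Stat2 was the only member called among the 3 date codes in edgeR with TMM scaling. This comparison was chosen after the Stat2 values were seen, and it tested the replicate number in the fit that held both subset and replicate number. It called 1 of 9 members, Stat2 (adjusted p = 0.00172, edgeR), against 16.3% of all genes tested. In replicate 3, Stat2 differed from the mean of replicates 1 and 2 by -0.55 in cDC1, -0.55 in cDC2 and -0.84 in pDC (log2 of CPM plus 1), while the median over all genes was 0, -0.03 and -0.02. The other 8 members did not pass, the nearest being Ifnar1 (adjusted p = 0.061, edgeR). Ifnar1 passed as well as Stat2 with library size only (adjusted p = 0.0281, edgeR) and with limma-voom (adjusted p = 0.0352).

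Of 18 targets of ISGF3, 6 were called in the test of date codes, which has no direction, against 16.3% of all genes tested. Isg15, Oas1a, Oasl2, Ifi44 and Irf7 were highest in replicate 3 of each subset. Mx1 was lowest there, though replicates 1 and 3 were close in pDC (22.9 and 22 CPM). The median difference of replicate 3 from the others over the list was 0.19, 0.48 and 0.39 in cDC1, cDC2 and pDC. Isg15, a ubiquitin-like antiviral protein, stood at 13.9, 11.9 and 23 CPM in cDC1, 41.5, 35.2 and 63.1 in cDC2, and 21.3, 23.5 and 39.8 in pDC, so that replicate 3 was highest in each subset (adjusted p = 0.0024, edgeR). Mx1, another target on the list, stood at 28.3, 36.4 and 21.1 CPM in cDC1 and 17.8, 29.8 and 13.6 in cDC2. In pDC it stood at 22.9, 45.2 and 22 CPM, and its replicate order was that of Stat2 in each subset. Irf9 was not called for date code. The summed level of 10 immediate-early and heat-shock genes was also highest in replicate 3, at 6180 CPM in cDC1 (lowest 1960), 6000 in cDC2 (lowest 3140) and 3990 in pDC (lowest 1560). Replicate 3 had the fewest reads in each subset as well, and the part of these in the differences by date code was not tested.

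**Figure D5:**
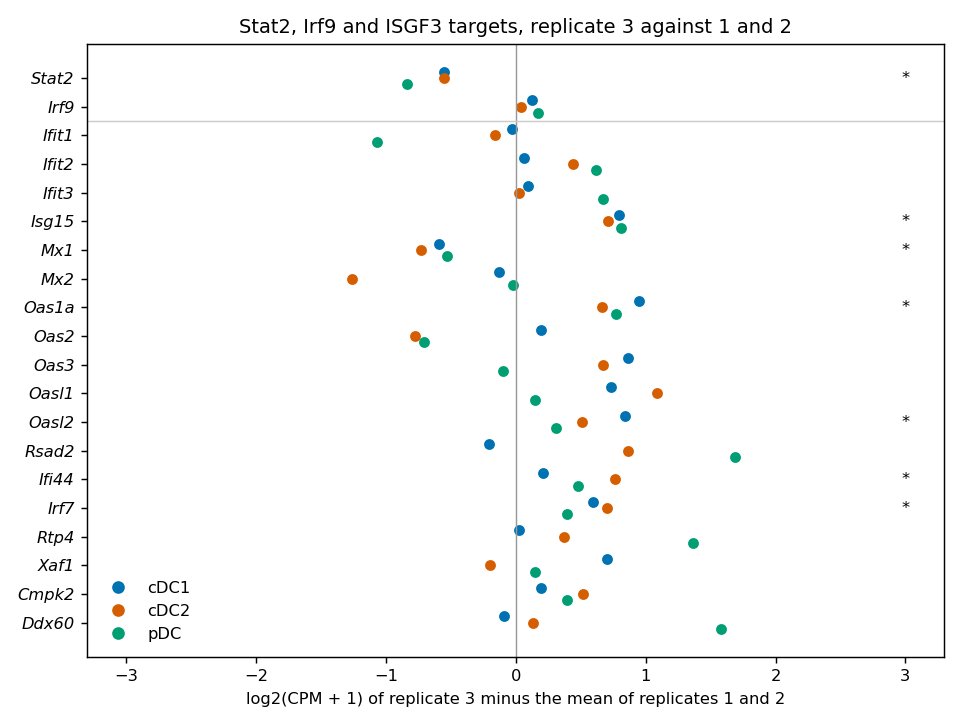
Difference between replicate 3 and the mean of replicates 1 and 2 (horizontal axis, log2 of CPM plus 1) in cDC1, cDC2 and pDC for Stat2 and Irf9, above the grey line, and 18 targets of ISGF3. An asterisk marks genes that passed an adjusted p of 0.05 for date code in edgeR. Stat2 lies left of 0 in all 3 subsets, at -0.55, -0.55 and -0.84, and Isg15 and Oas1a lie right of 0 in all 3.

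Finally, the genes whose levels ran most like each member over the 9 libraries were listed, as a description that rests mainly on the differences among 3 subsets. Ifnar1 ran most like Calcoco1 (Pearson r = 0.998 on log2 of CPM plus 1) and Trim25 (0.997), and Ifnar2 most like Ets1 (0.998) and Sema4b (0.997). For Ifngr1 these were Dapk1 and Slamf7 (0.998 each), and for Ifngr2 they were Hltf and Gm12185 (0.983 each). Ifnlr1 ran most like Mmp19 (0.998) and Plce1 (0.994), and Il10rb most like Bckdha (0.995) and Rab24 (0.994). Tyk2 ran most like Adam19 (0.995) and Psme1 (0.988). Jak1 and Stat2 had somewhat lower values, with Fam21 (0.978) and Micu2 (0.973) for Jak1 and Ccdc88c and Zfp865 (0.987 each) for Stat2.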

How the data were processed

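RNA from sorted mouse DC was sequenced over 75 bases from one end with a stranded kit for polyadenylated RNA. The authors deposited raw read counts per gene for 9 libraries, not normalized. The submitters' processing notes name STAR, SAMtools, MultiQC and featureCounts and the build mm10, without versions. The annotation release and the strand setting of the counting are not given in the sources used here, and the paper names only Degust for the comparisons. Gene names were taken from the deposited table.

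Libraries were grouped by their labels. The filter was edgeR's filterByExpr (minimum count 10), and 13819 of 39179 genes passed it. TMM factors scaled the libraries, and all 9 were fitted with the subset as the only term in edgeR 4.0.16 (R 4.3.3). Contrasts used the quasi-likelihood test, adjusted by Benjamini-Hochberg over all genes tested, at a threshold of 0.05. Chain ratios used exact permutation tests over libraries. Exon lengths and positions came from GENCODE M21 (GRCm38), which held exons for 95.99% of the genes. Promoters came from RefSeq.

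The same replicate number carries the same date code in the labels, which is the source of the pairing. Deviations of same-numbered libraries from their subset means correlated at 0.403 on average (0.266 to 0.543 over 9 pairs). Alternatives were the replicate block, DESeq2 1.42.0, limma-voom (limma 3.58.1), other scalings, filters and thresholds, only the 6 libraries compared, and each library left out. The test of date codes and the fits without replicate 3 were added after the data were seen. The members and lists were chosen with earlier results of these data known. Every member and every gene of the list of other JAKs, STATs and IRF9 could be named, and 1 gene of that list is counted but not reported here. From the other lists, up to 2 genes with the largest rise and 2 with the largest fall per comparison were named, where the mean count in the higher subset was at least 100. Isg15, Oas1a, Mx1, Il22ra2, Ifng, Ifnb1, Gm21970 and 1700084C06Rik were named after their values were seen. For each member, the 2 genes with the highest Pearson correlation were also named. The plots used matplotlib 3.10.9 in Python 3.11.15. Protein and stimulated cells were not analysed here.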

Additional observations from a re-analysis of the deposited data

How the results depend on the processing

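The counts below include Ifnlr1 in the comparisons with pDC, where it passed the filter on low counts only through the conventional subsets. Its 19 alternative values in each of these comparisons are among those that kept the call. They are not taken as support for a difference from pDC. No member changed direction in a call under any setting. Over 537 alternative values for the members' differences, 517 kept the side of the threshold. Another 15 lost the call (all of them for Jak1, Stat2 or Il10rb), 5 gained one and 0 reversed a call. The uncalled difference of Ifnar1 in cDC2 against cDC1 (-0.01) took either sign, from -0.12 to 0.09. With a log2 difference of at least 1 also required, 5 members passed in pDC against cDC1 (8 without this), 4 in pDC against cDC2 (7 without) and 1 in cDC2 against cDC1 (6 without), and 24 other pathway genes passed in pDC against cDC1 (38 without). The share of all genes that passed this stricter rule is not given here, so these counts are not read as a trait of the members. With 1 library left out, 8, 6 to 7 and 5 to 6 members passed in the 3 comparisons. Without replicate 3 of every subset, 8, 8 and 7 members passed. With the replicate block, 9, 8 and 7 members passed, and beyond the calls for Jak1, Tyk2 and Stat2 named above it changed no call of a member. It called 40, 41 and 37 other pathway genes against 38, 32 and 31 without it. Calls also rose over all 13819 genes tested, to 8094, 7663 and 4916 with the block from 6718, 6328 and 3370 without it. Scaling by library size only moved the median of all genes by 0.11 in cDC2 against cDC1. Of the calls, 63.1% were then higher in cDC2 against 52.2% with TMM, while no call of a member reversed. For the date codes, 2 members (Stat2 and Ifnar1) passed with library size only and with limma-voom, against 1 in the reported test. The largest difference between subsets in the ratios was 0.76, 2.87 and 1.19 on the log2 scale for Ifnar, Ifngr and Jak1 to Tyk2. It was 0.70 to 0.87, 2.71 to 3.05 and 1.10 to 1.24 with 1 library left out. Without replicate 3 of every subset it was 0.85, 2.86 and 1.10, with an exact permutation p of 0.0667, which is the smallest that 6 libraries allow. Ifnlr1 had no value when 10 counts were required in every library. Depth limits Ifnlr1 among the members and, among the other genes, the ligands, Il22ra2, Oas2, Ido1 and those with too few reads for a test. Transcript levels say nothing of receptor protein on the cell surface, and with 3 pools per subset the p-values measure the spread between pools.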
